A study of Mus musculus with 16 samples.

Results

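The H3K27ac regions described here lay at the ends of protein-coding genes and were called, at moderate width, in both control and both Mettl14 knockout lists of mouse embryonic stem cells. They were selected on measured values. The peaks of the 4 H3K27ac lists were merged into 36453 regions, 2913 of these were called in all 4 lists, and 1100 (37.8%) of those covered under 3000 called bases on average and came within 1 kb of the first or last base of a protein-coding gene span. These 1100 members touched 1356 of 21887 protein-coding genes (6.20%). The word steady therefore means called in every list and does not mean equal in width. The 1115 other regions that were called in all 4 lists at the same moderate width but away from gene ends (552 inside gene bodies and 563 between genes) are used as the comparison.

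The cells were C57BL/6 embryonic stem cells, labelled Control or CKO for Mettl14, and all groups were grown with serum, LIF, CHIR99021 (a GSK3 inhibitor) and PD0325901 (a MEK inhibitor). The 3 marks profiled by ChIP-seq, with 2 control and 2 knockout libraries each, were H3K4me3, H3K27ac and H3K27me3. Whether the knockout is 1 clone, how it was induced and whether the libraries of a group came from separate cultures is not given in the sources used here, so spread between libraries may be technical. The peak lists hold no value that checks the loss of Mettl14. In the labels, the H3K27ac libraries carry the antibody of the H3K4me3 libraries; they were taken as H3K27ac from their titles, and nothing in the lists identifies the antibody.

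The H3K27ac lists held 15541, 13520, 15271 and 15058 peaks in control 1, control 2, knockout 1 and knockout 2. Members took between 9.92% and 11.1% of each list's called bases. The H3K4me3 lists differed more, with 2859 and 2431 peaks in the control lists against 8131 and 8055 in the knockout lists. Markers fixed for other cell types had no member: 0 of 10 fibroblast, 0 of 8 trophectoderm and 0 of 8 primitive endoderm genes. With 6.20% of all protein-coding genes at a member, lists this short would often hold none, so these zeros check little.

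H3K27ac is an acetyl mark on histone H3 found at active promoters and enhancers. H3K4me3 is placed at active and poised CpG-rich promoters by the SET1 and MLL complexes, and H3K27me3 is the repressive mark of Polycomb. METTL14 joins METTL3 to form the enzyme that deposits N6-methyladenosine (m6A) in RNA. The series asked how histone marks differ when it is lost.

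The promoters of 8 members show sequence from inside these regions. They were chosen after their values and motifs were seen, to span a ribosomal group, m6A and chromatin genes, a region far wider in the knockout and a start without H3K4me3. Each runs from 200 bases before to 30 after a RefSeq start site (GRCm38.p6, the assembly of mm10), 5′ to 3′ on the gene's strand, and lies inside a member. Capitals mark matches on either strand to short motifs named for a factor. These were CCAAT for the trimeric factor NF-Y, CCGGAA for ETS family factors, GGGCGG for the GC box of Sp factors, AAGATGGCG for the zinc finger factor YY1, TCTCGCGAG for the zinc finger factor Zbtb33, and TATAAA for the TATA box. A match is a run of letters and says nothing of binding.

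Rps6 and Rps7 encode proteins of the small ribosomal subunit (chr4:86857338-86857567, minus strand; chr12:28635924-28636153, minus strand), with ETS letters in both and Zbtb33 letters in Rps6.
Rps6: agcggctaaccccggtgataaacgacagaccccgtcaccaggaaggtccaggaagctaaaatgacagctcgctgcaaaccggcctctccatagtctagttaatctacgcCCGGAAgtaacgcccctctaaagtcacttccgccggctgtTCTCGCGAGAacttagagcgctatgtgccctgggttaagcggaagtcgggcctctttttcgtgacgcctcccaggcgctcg
Rps7: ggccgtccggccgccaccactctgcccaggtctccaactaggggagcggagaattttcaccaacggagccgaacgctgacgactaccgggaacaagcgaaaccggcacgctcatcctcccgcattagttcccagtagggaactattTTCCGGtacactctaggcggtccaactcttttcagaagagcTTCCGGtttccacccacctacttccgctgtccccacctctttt

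Rbm15 is a subunit that brings the m6A writer to its targets (chr3:107333260-107333489, minus strand), and Mettl16 is a separate RNA m6A methyltransferase (chr11:74770663-74770892, plus strand). Both carry the Zbtb33 letters, and Mettl16 has the YY1 letters at its start.
Rbm15: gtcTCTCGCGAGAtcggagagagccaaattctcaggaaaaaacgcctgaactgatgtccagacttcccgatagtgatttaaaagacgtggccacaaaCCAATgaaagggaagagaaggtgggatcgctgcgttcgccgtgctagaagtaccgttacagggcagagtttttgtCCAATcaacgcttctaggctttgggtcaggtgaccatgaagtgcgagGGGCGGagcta
Mettl16: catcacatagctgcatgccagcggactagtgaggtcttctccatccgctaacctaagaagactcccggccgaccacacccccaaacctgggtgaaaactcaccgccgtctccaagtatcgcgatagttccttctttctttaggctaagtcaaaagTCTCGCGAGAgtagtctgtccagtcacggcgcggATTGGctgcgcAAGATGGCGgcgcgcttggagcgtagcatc

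Ezh2 is the catalytic subunit of Polycomb repressive complex 2 (chr6:47595001-47595230, minus strand) and Srsf1 is a splicing activator (chr11:88047173-88047402, plus strand). Ezh2 has 3 NF-Y matches.
Ezh2: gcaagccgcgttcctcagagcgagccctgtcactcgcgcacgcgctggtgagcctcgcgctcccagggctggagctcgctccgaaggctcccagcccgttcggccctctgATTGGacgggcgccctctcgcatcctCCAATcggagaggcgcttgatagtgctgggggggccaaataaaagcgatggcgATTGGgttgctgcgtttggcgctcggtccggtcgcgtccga
Srsf1: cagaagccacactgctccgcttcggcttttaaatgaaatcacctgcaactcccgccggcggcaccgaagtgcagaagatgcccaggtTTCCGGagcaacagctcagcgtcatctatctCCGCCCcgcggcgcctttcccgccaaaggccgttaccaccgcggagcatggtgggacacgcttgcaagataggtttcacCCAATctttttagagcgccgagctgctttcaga

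Ppp2r1a, the scaffold subunit of protein phosphatase 2A (chr17:20945254-20945483, plus strand), was among the members most widened in the knockout lists. Nqo1, a quinone reductase gene induced by oxidative stress (chr8:107403176-107403405, minus strand), carried no H3K4me3 peak and is the one of these 8 with TATA box letters.
Ppp2r1a: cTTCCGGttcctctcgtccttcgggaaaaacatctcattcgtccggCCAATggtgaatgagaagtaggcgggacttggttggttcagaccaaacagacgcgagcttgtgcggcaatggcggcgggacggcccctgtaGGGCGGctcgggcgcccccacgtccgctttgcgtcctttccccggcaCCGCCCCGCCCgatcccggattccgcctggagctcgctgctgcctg
Nqo1: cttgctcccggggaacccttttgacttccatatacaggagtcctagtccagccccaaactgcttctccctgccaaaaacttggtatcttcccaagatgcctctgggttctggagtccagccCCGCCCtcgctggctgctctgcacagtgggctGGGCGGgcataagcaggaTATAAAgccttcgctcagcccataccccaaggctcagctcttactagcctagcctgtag

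Of the 1356 genes at a member, 1096 had an entry in the promoter table. RefSeq promoter sequences of 300 bases (250 before to 50 after the start) were at hand for 1164 starts at members. Their median was 26 CpG dinucleotides and 63.7% G and C, against 13 and 56.3% over all 21263 promoters. GC box letters stood in 69.2% of member promoters and 46.2% of all promoters. The ETS letters stood in 33.1% against 18.7%, the YY1 letters in 7.22% against 1.83%, and the Zbtb33 letters in 4.64% against 0.964%. Also searched were 4 other patterns: E-box CACGTG stood in 13.3% against 7.84%, NRF1 GCATGCGC in 6.27% against 3.52%, CRE TGACGTCA in 4.12% against 2.23%, and Zfp143 ACTACAATT in 0.515% against 0.508%. NF-Y letters were less frequent in member promoters, 32.5% against 38.2%, as were TATA box letters, 7.39% against 12.6%. Both strands were searched and overlapping matches of different motifs were counted separately. The 45 ribosomal protein promoters among them differed again, with ETS letters in 24 (53.3%) and Zbtb33 letters in 6 (13.3%), as in the Rps6 and Rps7 sequences above.

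Strand in the promoter table placed the members on their genes. A total of 853 members (77.5%) lay at a start, meaning within 1 kb of it. Another 41 (3.73%) touched only the 3′ end of genes, and 206 touched no start in the promoter table but at least 1 gene without an entry there. At 146 members, starts of genes on opposite strands met. A single gene was touched by 851 members, 2 genes by 233, 3 genes by 15, and 5 genes by 1 region of the histone cluster on chromosome 13 (H2ac8, H2bc8, H2bc7, H2ac7 and H3c4). The 146 head-to-head members averaged 1456 and 1213 H3K27ac bases in the control lists and 1638 and 1527 in the knockout lists, close to the values of all members given below. Of them, 48.6% and 41.8% carried H3K4me3 in the control lists and 90.4% and 88.4% in the knockout lists.

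The acetylated bases sat mainly downstream of the start. Over 685 starts transcribed in 1 direction, the start base itself lay in an H3K27ac peak in 72.7% and 65.5% of members in the control lists and in 84.7% and 85.3% in the knockout lists. The share was highest 150 to 300 bp downstream in the 4 lists (85.4%, 79.1%, 90.4% and 90.8%). At 500 bp upstream it had dropped to 37.2%, 33.9%, 47.2% and 49.5%, while at 500 bp downstream it still stood at 78.1%, 72.7%, 82.3% and 85.3%. The median midpoint of the called bases lay 254.5 bp past the start in each control list and 228.5 and 204 bp past it in the knockout lists.

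H3K4me3 peaks had another outline in the control lists. There they covered the start in 11.5% and 12.0% of the same members and were most frequent 550 and 500 bp downstream, at 31.2% and 36.8%. In the knockout lists they covered the start in 71.1% and 72.8%, and the highest share was 85.3% in each, at 250 and 400 bp. In all 4 lists the H3K4me3 share was thus higher downstream of the start than at the start base.

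**Figure D1:**
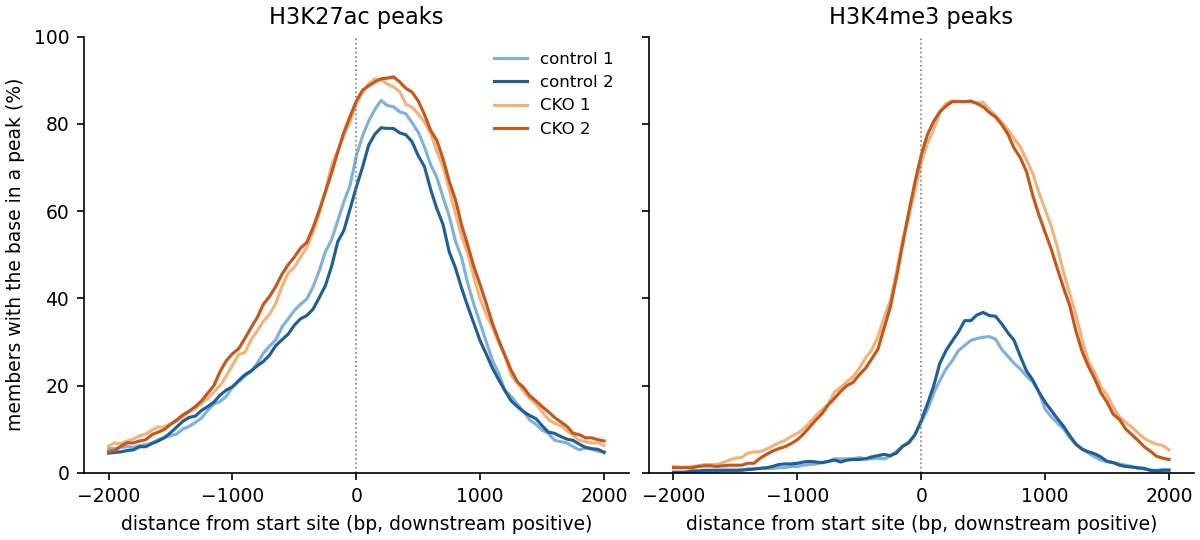
Percent of 685 members whose base at each distance from the start site (bp, downstream positive) lies in a peak, for H3K27ac (left) and H3K4me3 (right), with 1 line per list. All 4 H3K27ac lines peak 150 to 300 bp downstream, while the H3K4me3 lines of the control lists stay below 40% and those of the knockout lists reach 85.3%.

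H3K27ac widths chose the members, so they are described without a test. Called H3K27ac bases per member averaged 1373 and 1259 in the control lists (1316 ± 81.2, SD, n = 2) and 1577 and 1616 in the knockout lists (1596 ± 27.9, SD, n = 2). Both knockout lists stood above both control lists, a ratio of 1.21 or 0.28 on the log2 scale. The other narrow regions averaged 1579 and 1461 bases in the control lists and 1581 and 1614 in the knockout lists, where the groups also did not overlap but the log2 difference was 0.07. Relative to those regions, members were 0.869 and 0.862 times as wide in the control lists and 0.997 and 1.00 times as wide in the knockout lists.

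Single members varied by more than the average did. Mean called bases ran from 501, the smallest peak width in any list, to 2984 with a median of 1358. The coefficient of variation over the 4 lists had a median of 27.5%, against 36.5% in the other narrow regions and 17.2% in the 183 broad gene-end regions. All 4 widths lay within 1.5-fold of each other in 270 members (24.5%), against 159 of the 1115 other narrow regions (14.3%). The share was 27.2% over all 2913 regions called in the 4 lists and 54.1% in the 183 broad gene-end regions. At least 1 base was called in all 4 lists in 993 members, and the median of such bases was 757.5. A pair of lists shared a median of 59.1% to 67.6% of its joined bases in members and 45.7% to 49.8% in the other narrow regions.

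Both knockout widths exceeded both control widths in 388 members (35.3%), against 27.5% of all regions called in the 4 lists. The reverse held in 65 members (5.91%), against 12.5% of those regions. These shares rest on the lists that chose the members and nothing is read from them. The share of members at the 501 bp minimum was 9.82% and 14.4% in the control lists and 5.55% and 4.73% in the knockout lists.

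**Figure D2:**
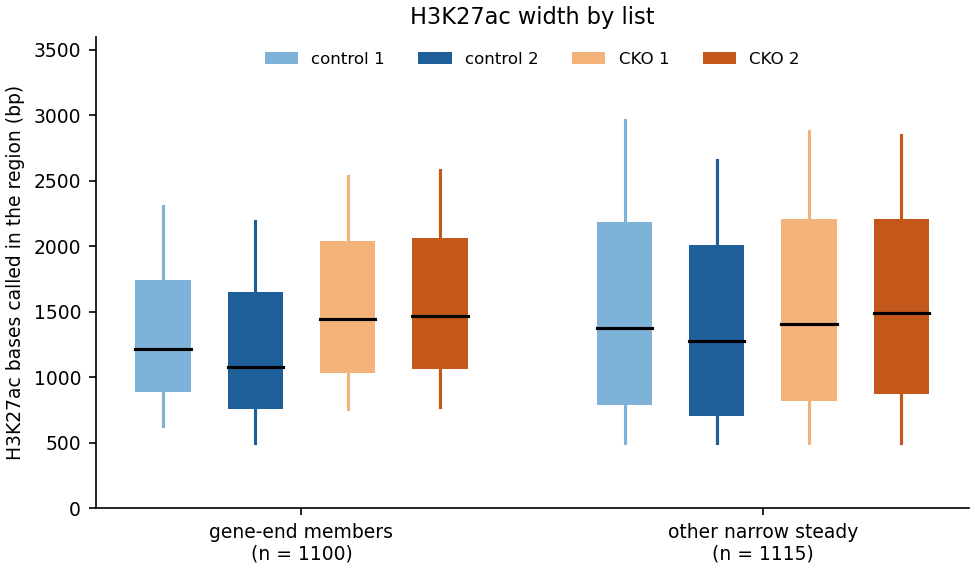
H3K27ac bases called per region (bp) in each list, for the 1100 members and the 1115 other narrow regions called in all lists. Boxes span the quartiles, black lines are medians and thin lines run from the 10th to the 90th percentile. The medians of the members are 1216 and 1074 in the control lists and 1446 and 1466 in the knockout lists.

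The 10 largest ratios among members whose groups did not overlap came from genes of unrelated roles. Crlf2, the receptor for thymic stromal lymphopoietin, covered 686 and 501 bases in the control lists and 5573 and 3993 in the knockout lists, at its 3′ end. Ppp2r1a, whose promoter is shown above, covered 628 and 641 against 2362 and 3330. Map4, a microtubule-associated protein, covered 501 and 501 against 1902 and 2502. At Ppp2r1a and Map4 both control lists sat at or near the minimum width, and H3K4me3 was called in the knockout lists alone (1176 and 1684 bases, and 1971 and 1627 bases). The other 7 were Txlng, Nutf2 (nuclear import of Ran), Renbp, Pigv (a mannosyltransferase of GPI anchors), Bcl7b (a BAF complex subunit), the shared promoter of Emc8 and Cox4i1, and Fem1c.

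The 10 smallest ratios held 2 genes of ribonuclease H. Rnaseh1 covered 2029 and 2571 bases in the control lists and 674 and 501 in the knockout lists. Rnaseh2b covered 1505 and 6414 against 1306 and 1134, so that control 2 alone stood far from the rest. Tbc1d13, a Rab GTPase-activating protein, covered 5037 and 2682 against 1448 and 501, although H3K4me3 was called there in the knockout lists alone (1171 and 886 bases). The cyclophilin Ppil1 likewise covered 1329 and 1759 against 501 and 501 with H3K4me3 in the knockout lists alone (813 and 858 bases). Mbd6 with Ddit3, Mrps5, Zfp64, Sf3b3 with Cog4, and Rps10 were also among these 10.

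The steadiest members of at least 1000 bases had coefficients of variation between 2.79% and 4.99%. The divergent promoter of Dnajb4, a co-chaperone, and Fubp1, a MYC regulator, covered 2223, 2228, 2116 and 2256 bases. Rpl32 covered 2132, 2084, 2131 and 2294, and the kinase gene Csnk1d 1309, 1378, 1367 and 1451. Matr3 and the region of Tmed7 and Eif1a completed this group. At the width limit, Zc3h4 (mean 2984), Mtmr12 (2951), Ube2n (2944), Ranbp3 (2942) and Ssr2 (2915) were the last inside, and Mov10 (3001), Vdac1 (3003), Smad7 (3004), Rpl13a with Flt3l (3008) and Brd3 (3010) the first outside.

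**Figure D3:**
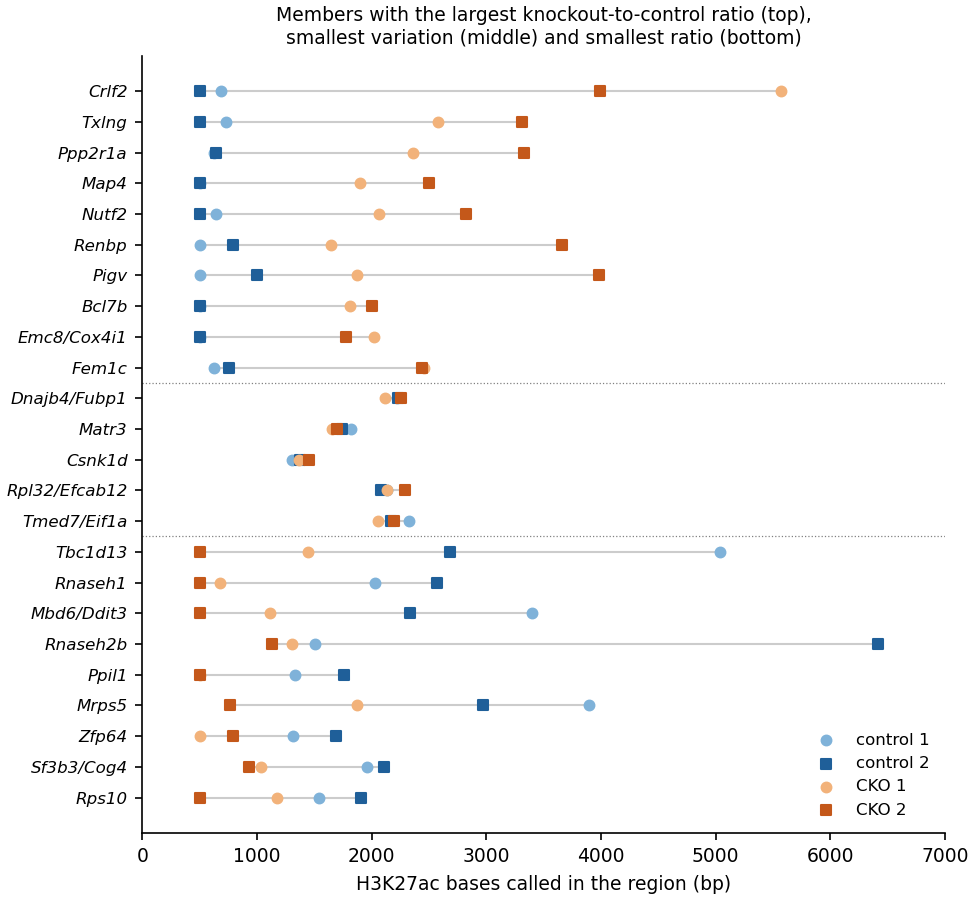
H3K27ac bases called (bp) in the 4 lists for the 10 members with the largest ratio of knockout to control, the 5 with the smallest coefficient of variation and 9 of the 10 with the smallest ratio. Crlf2 spans 501 to 5573 bases, while Dnajb4/Fubp1 spans 2116 to 2256.

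H3K4me3 did not enter the rule, and more of these regions carried it in each knockout list than in either control list. An H3K4me3 peak lay in 39.2% and 42.5% of members in the control lists (40.8 ± 2.31%, SD, n = 2) and in 84.6% and 84.1% in the knockout lists (84.4 ± 0.386%, SD, n = 2). The groups did not overlap and differed by 43.5 percentage points, with p = 0.333 in an exact two-sided permutation test, the smallest p that 2 lists against 2 can give. The knockout H3K4me3 lists held about 3 times as many peaks, which moves with this difference. With each list cut to its 2431 widest peaks, the shares were 36.1% and 42.5% against 59% and 60.5%, a difference of 20.5 points (p = 0.333, exact permutation test).

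Gene ends and H3K4me3 went together in every list. The other narrow regions carried H3K4me3 in 5.38%, 4.57%, 12.9% and 11.7%. Members exceeded them by 33.8, 37.9, 71.7 and 72.3 points, on average 53.9, with p = 0.125 in an exact two-sided sign-flip test over the 4 lists, the smallest it can give. Within members the share followed the start site. Members at a start carried H3K4me3 in 41.6%, 44.9%, 88.7% and 87.8%, and members at a 3′ end in 2.44%, 2.44%, 9.76% and 7.32%. The difference averaged 60.3 points (p = 0.125, exact sign-flip test), and it was chosen after seeing the data. The 206 members not placed resembled those at a start, at 36.4%, 40.3%, 82.5% and 84.0%.

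**Figure D4:**
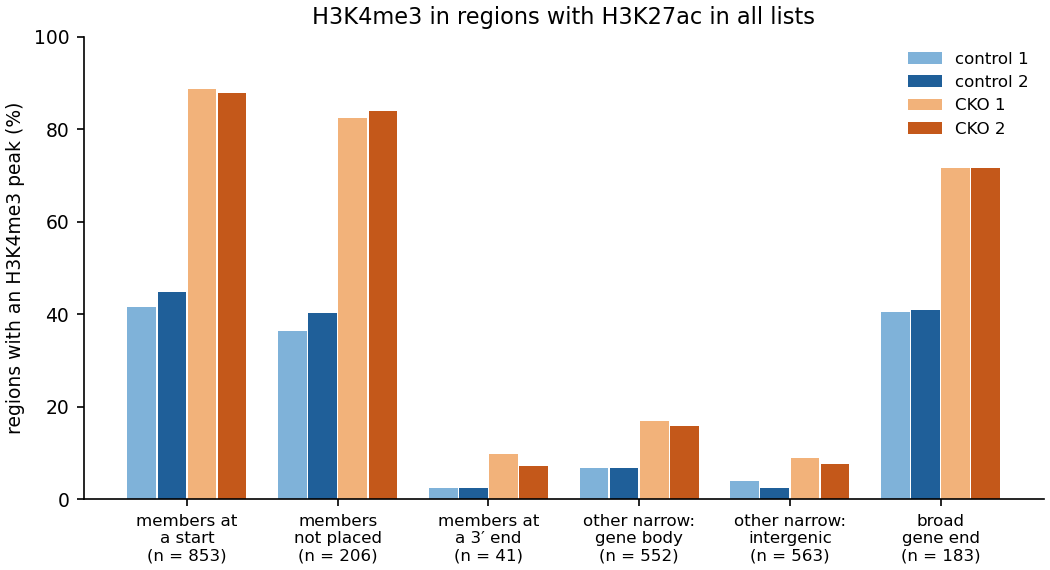
Percent of regions with an H3K4me3 peak in each list, for members at a start, not placed and at a 3′ end, and for the other regions with H3K27ac in all lists. Bars are single lists. Members at a start reach 88.7% in knockout 1, and members at a 3′ end stay below 10% in all 4 lists.

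By list, 265 members (24.1%) carried H3K4me3 in all 4 lists, against 12.0% of all regions with H3K27ac in the 4 lists. Another 281 (25.5%) carried it in both knockout lists and no control list, against 13.0% of those regions. A total of 333 carried it in both knockout lists and 1 control list, 116 in none, and 1 in both control lists without a knockout list. In the 265 members with H3K4me3 throughout, its called bases inside the region averaged 844 and 870 in the control lists and 1673 and 1645 in the knockout lists. The groups did not overlap, with a ratio of 1.94 or 0.95 on the log2 scale (p = 0.333, exact permutation test).

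H3K27ac width differed between these classes. Members with H3K4me3 in all 4 lists averaged 1591 and 1428 H3K27ac bases in the control lists and 1761 and 1771 in the knockout lists. Members with H3K4me3 in the knockout lists alone averaged 1173 and 1111 against 1504 and 1537, so they were narrower in every list and further apart between genotypes (0.41 against 0.23 on the log2 scale). Their width relative to the first class was 0.738 and 0.778 in the control lists and 0.854 and 0.868 in the knockout lists. More of them sat at the 501 bp minimum, 17.4% and 19.6% in the control lists and 4.98% and 4.63% in the knockout lists. In the first class these shares were 3.77% and 9.43%, then 2.64% and 1.13%. Of the 281, 125 (44.5%) were wider in both knockout lists, and of the 265, 76 (28.7%) were. Of the 116 without H3K4me3, 31 (26.7%) were, at a log2 difference of 0.15. The share was 35.3% over all members and 27.5% over all regions called in the 4 lists, and these H3K27ac widths are those that chose the members. Across the 879 members with H3K4me3 in both knockout lists, the log2 widths of the 2 marks in those lists correlated at Pearson r = 0.605. In the 265 members with H3K4me3 in all 4 lists, the control widths correlated at r = 0.427, and the log2 ratios of knockout to control at r = 0.160. H3K4me3 bases were counted only inside the merged H3K27ac region. The length of that region caps both widths, so a positive correlation between them is partly built in. These correlations describe regions of the same libraries, not replicates.

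The members with the widest H3K4me3, counted inside the region, included RNA-handling genes among others, and no shared theme was tested. Eif4a2, an RNA helicase of translation initiation, covered 1839, 1302, 2979 and 2820 H3K4me3 bases. Ewsr1, an RNA-binding protein, covered 1818, 2023, 2239 and 2776, and the DEAD-box helicase gene Ddx3x 1921, 905, 2930 and 2990. At all 3, both knockout values exceeded both control values. Fbxo36, Ncor1, Eef1a1, Usp9x, Dnajb4 with Fubp1, and Znfx1 were also among the 10 widest.

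Of the 853 members at a start, 56 overlapped no H3K4me3 peak in any list. Such a region can lie beside the start, so H3K4me3 at the start itself may fall outside it. At Mreg, a second member at the same gene carried H3K4me3 (632, 0, 1302 and 1428 bases). Among the 56 were 3 regions of the histone cluster on chromosome 13. H3K27ac widths were 2205, 1472, 2972 and 2126 at the 5-gene region of H2ac8 and 1890, 1413, 816 and 3681 at H4c1, H3c1 and H1f1. The third was H2ac4 with H3c2. Other histone regions carried H3K4me3 in 1 knockout list, such as H4c4 (636 bases in knockout 2) and H2ac10 with H3c8 (700 bases in knockout 1). Nqo1 covered 1570, 2178, 1570 and 1972 bases. The region at the Polycomb cofactor gene Aebp2, which ended upstream of the gene's start, covered 2221, 1694, 635 and 2008. In neither were the genotypes apart. The 72 promoter entries at members without H3K4me3 had a median of 12 CpG, against 27 for members with H3K4me3 in all lists, and 20.8% held TATA box letters against 5.69%. The Nqo1 sequence above is an example. At the 41 members of 3′ ends, 36 had no H3K4me3 and 3 touched an end of an annotated non-coding gene. They included Hk2, a hexokinase (3344, 2282, 3279 and 501 bases), and Ctnnb1, beta-catenin (501, 501, 501 and 1151 bases). In both, knockout 2 stood apart from the other 3 lists.

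H3K27me3 was nearly absent from members. One of 1100 overlapped a peak, Atp8b2 (a phospholipid flippase) in knockout 2, against 0.103% of all regions called in the 4 H3K27ac lists. The share was 0 in the other 3 lists (exact permutation p = 1).

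Members were unevenly spread over 29 gene lists, which were chosen with earlier results of these data known. Across all protein-coding genes 6.20% had a member. Counts of wider regions in each list stand beside 35.3% of all members wider in both knockout lists and 5.91% wider in both control lists. They rest on the widths that chose the members, and nothing is read from them. The cytosolic ribosomal protein genes, which encode the proteins of the ribosome, had one at 57 of 79 (72.2%). Their 56 regions had H3K4me3 in both knockout lists in 56 and in all 4 lists in 30, beside 79.9% and 24.1% of all members. Both knockout H3K27ac widths were larger in 14 and both control widths in 4, with a median log2 ratio of 0.23 against 0.27 over all members. Rpl5 covered 1390 and 1495 bases in the control lists and 2025 and 1410 in the knockout lists, where the groups overlap. Rpl7 covered 1731 and 1677 against 2353 and 2208, where they do not. Rps10, of the small subunit, had the reverse order with 1545 and 1909 against 1176 and 501, although its H3K4me3 bases were 640, 1815, 1802 and 1635.

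Translation initiation and elongation factors had a member at 17 of 35 genes, and 10 of the 17 regions were wider in both knockout lists and 0 in both control lists, where the shares over all members were 35.3% and 5.91% (median log2 ratio 0.37). Eef1a1, which brings aminoacyl-tRNA to the ribosome, covered 2155 and 1635 bases against 2357 and 2845. Eif3a, the largest subunit of initiation factor eIF3, covered 1330 and 1801 against 1949 and 1831. Both sets of values were apart, Eif3a by little. Ribosome biogenesis had 6 of 30, of which Nop58, a core protein of box C/D snoRNPs, covered 1458 and 1551 against 2587 and 3690. The nucleolar protein gene Npm1 covered 2335 and 1634 against 1662 and 2132, without separation.

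Splicing factors and hnRNPs had 19 of 43, with 7 wider in both knockout lists and 2 in both control lists, beside 35.3% and 5.91% of all members. Srsf1 covered 1656 and 754 bases against 2212 and 1749, and Srsf3 covered 2203 and 1831 against 2172 and 2683. Only the first was apart between genotypes.

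The m6A machinery, to which Mettl14 belongs, had members at 10 of 20 genes, and 5 of the 10 regions were wider in both knockout lists and 1 in both control lists. H3K4me3 was called in both knockout lists at all 10 and in all 4 lists at 4, beside 79.9% and 24.1% of all members. Wtap, the regulatory subunit that anchors the METTL3 and METTL14 pair, covered 1888 and 2705 bases in the control lists and 2498 and 2137 in the knockout lists, with H3K4me3 in the knockout lists alone (1637 and 1933 bases). Rbm15 covered 2229 and 2321 against 2266 and 2577. Both were close to level between genotypes, at log2 ratios of 0.01 and 0.09. Mettl16 sat at the minimum of 501 in both control lists and covered 1210 and 1139 in the knockout lists. Rbm15b went the other way, with 638 and 869 against 633 and 626, apart by little. The remaining 6 were Ythdf1, Ythdf2, Ythdf3 and Ythdc1, which bind m6A, and Igf2bp1 and Igf2bp3.

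Among H3K4 methylases and demethylases 6 of 17 genes had a member. Kdm5a, an H3K4 demethylase, covered 1055 and 1180 bases against 2012 and 1946. Wdr5, the shared subunit of the SET1 and MLL complexes, covered 1970 and 1357 against 1035 and 1222. The genotypes did not overlap at either gene, and their order was opposite. Kmt2b covered 943 and 1030 against 788 and 980, where they overlapped, and Setd1a, Kdm5b and Kdm5c were the other 3.

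Polycomb and H3K27 demethylase genes had 10 of 31. The catalytic subunit gene Ezh2 covered 1838 and 1636 bases against 1921 and 1854, and Eed, which binds H3K27me3, 2307 and 1775 against 2604 and 2507. Suz12, the third core subunit of the same complex, covered 3163 and 2009 against 1646 and 1857. Ezh2, by little, and Eed were thus wider in both knockout lists and Suz12 in both control lists. These widths chose the members, and nothing is read from their order.

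Chromatin remodellers had 10 of 25, with 4 wider in both knockout lists and 0 in both control lists, near the 35.3% and 5.91% of all members. The BAF subunit gene Smarcc1 covered 501 and 501 bases against 1018 and 1810, and Arid1b 501 and 1002 against 2074 and 1712. Both sat at the minimum width in control 1. Of the acetyltransferases, deacetylases and BET readers 4 of 25 had a member, among them Ep300, the acetyltransferase that writes H3K27ac (3516 and 2205 against 2242 and 2427). Neither Ep300 nor the other 3 (Kat8, Brd1 and Brpf1) separated the genotypes.

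Genes of p53 and the DNA damage response had 8 of 20. Trp53, read with its antisense neighbour Wrap53, covered 3127 and 2300 bases against 2652 and 2531, and its inhibitor Mdm2 3107 and 1500 against 2459 and 4213. Neither was apart, and H3K4me3 was called there in the knockout lists alone. The apoptosis effector gene Bax covered 1313 and 1021 against 1524 and 1327, apart by little. Stress and chaperone genes had 9 of 24, where the mitochondrial chaperonin promoter of Hspd1 and Hspe1 covered 1683 and 501 against 1902 and 2049.

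RNA polymerase II and general factors had 9 of 39 and Mediator and cohesin 7 of 40. Taf1, the largest subunit of TFIID, covered 2199 and 2405 bases against 1432 and 805, wider in both control lists. The cohesin subunit genes Smc3 (1544 and 1320 against 1457 and 752) and Rad21 (1772 and 1619 against 2524 and 1356) overlapped between genotypes. Med16 covered 755 and 752 against 1044 and 1254 with no H3K4me3 in any list.

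Metabolic and proliferation lists held smaller shares than the ribosomal list: proteasome 5 of 31, oxidative phosphorylation 5 of 40, glycolysis 1 of 19 (Hk2, at its 3′ end), replication 5 of 39, cell cycle 4 of 30, and DNA methylation 3 of 14, among them Tet2. Cox7c, of cytochrome c oxidase, covered 918 and 1178 bases against 1139 and 1430. The mitotic cyclin gene Ccnb1 covered 1039 and 501 against 1503 and 1610, apart between genotypes. Signalling lists held Wnt 5 of 21, MEK-ERK 3 of 22 and BMP, Nodal and Smad 1 of 23. Glycolysis (5.26%) and the BMP list (4.35%) were near the share over all genes. Gsk3b, the target of the GSK3 inhibitor in the medium, covered 1188 and 501 against 1303 and 2186, and Bmpr1a, a BMP receptor, 1265 and 1059 against 2118 and 1753.

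Listed cell identity genes had no member, beside 6.20% of all protein-coding genes. The naive and core pluripotency list had 0 of 25 genes with a member and 11 with a broad gene-end region called in all lists, and the LIF-STAT3 pathway 0 of 14 and 2. Hox genes (0 of 39) and lineage transcription factors (0 of 30) had neither. A member was thus found at most ribosomal protein genes and at none of the listed pluripotency genes. At 11 of these 25, gene-end H3K27ac called throughout exceeded the width limit, which the rule fixes where no member is found. The rest of the 25 had no gene-end region called in all lists.

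**Figure D5:**
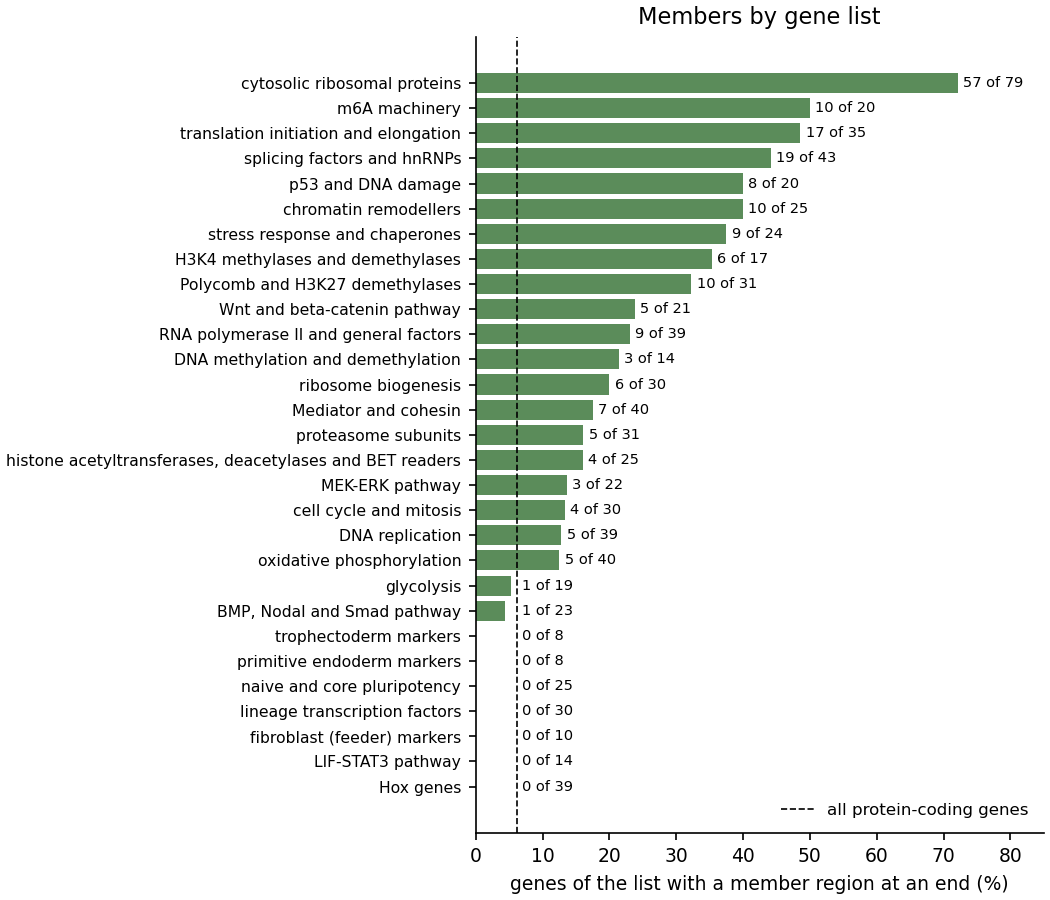
Percent of the genes of each list with a member at an end, with the counts beside the bars. The dashed line is the share over all protein-coding genes, 6.20%. Ribosomal protein genes stand at 72.2% and 7 lists stand at 0.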

How the data were processed

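Of 16 samples, the 12 ChIP peak lists (2 control and 2 knockout libraries for each of 3 marks, grouped by title) were used, and the 4 inputs were not used here. Build mm10 and the tools Bowtie2 2.4.1, Trimmomatic 0.38, HOMER, SAMtools and CASAVA are named per the submitters' processing notes. Which of them called peaks, and how inputs and spike-in chromatin were used, is not given in the sources used here. The lists deposited by the authors give peak positions, 1 list per library, with a score column that holds the constant 1. They hold no height or read number, so depth and counting error are unknown, and width and presence were the measurements. A longer list may come from more modified chromatin or from depth or threshold.

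The members and gene lists were chosen with earlier results of these data known. Peaks were merged at an overlap of 1 bp and set against RefSeq gene spans and promoters (GRCm38) with Python 3.11.15 and NumPy 2.4.6. The called bases of every mark were counted inside the merged H3K27ac regions only. Positions were read from the files, and 784 distinct genes in 29 lists were searched. Genes were named by rule: the 10 largest and 10 smallest ratios among members whose groups did not overlap, the 10 widest for H3K4me3, all with H3K27me3, the 5 steadiest of at least 1000 bases, 5 on each side of the width limit, up to 4 genes per list in list order and the regions touching most genes, with predicted genes passed over. Results of some genes named by this rule are not reported here. Other names were chosen after their values were seen. Exact two-sided permutation tests ran over the 6 assignments of 2 lists against 2, and sign-flip tests over the 4 lists. The code was tested on simulated data. Alternatives were other windows, width limits, merging distances, peak filters, list lengths, overlap minimums, leaving out each library and pairing by number.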

Additional observations from a re-analysis of the deposited data

How the results depend on the processing

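Each result was recomputed under the alternatives set out above. Of 104 recomputed values, 92 kept their direction or, for counts, stayed within 1.5-fold of the main value. The others were counts of wider members with 1 H3K27ac list left out, or H3K27me3 differences that fell to 0. No difference was reversed, but counts have no direction and the differences under pairing by number were fixed by construction. The number of members ran from 825, with peaks of the minimum width removed, to 1538, without control 2 of H3K27ac. The log2 difference in H3K27ac width stayed between 0.23 and 0.35, and that relative to other narrow regions, a result added after seeing the data, between 0.18 and 0.24. The difference in H3K4me3 share ran from 20.5 points, with lists of equal length, to 56.9, with an overlap of 50% of the region, and it was 45.0 at starts alone, a setting chosen after seeing the data. The log2 difference in H3K4me3 width ran from 0.82 to 0.98, and the excess of members over other narrow regions from 32.9 to 60.6 points.

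Leaving out 1 H3K27ac list compares fewer values per member, and the members wider in the knockout then numbered 628 to 767 (388 with all lists) and those wider in the control 165 to 285 (65 with all lists). The difference in H3K27me3 share, 0.0455 points from 1 member, became 0 with peaks of the minimum width removed, with lists of equal length and with an overlap of 50%, and ran from 0 to 0.0909 points with 1 list left out. It rests on knockout 2.

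Deviations of same-numbered lists correlated at 0.04 over 1100 members, so little pairing by replicate number was seen there. This does not show whether same-numbered libraries were prepared together. With the numbers as a block, the differences were the same by construction. They were 43.5 points for H3K4me3 share, 0.95 for H3K4me3 width and 0.0455 points for H3K27me3 share. Exact sign-flip tests over the 2 pairs gave p = 0.5, 0.5 and 1, where 0.5 is the smallest that 2 pairs can give. The difference in H3K27ac width, 0.28, is given without a test because those widths chose the members. With 2 lists per group, neither the exact permutation test nor the sign-flip test could reach 0.05, and unknown depth limits every comparison of list length.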

Other observations

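Members were found on every chromosome but Y. Chromosome 11 held 105 of 1100 (9.55%), against 7.35% of protein-coding genes, and chromosome X held 59 (5.36%, against 4.41%), whereas chromosome 7 held 77 (7%, against 9.27%) and chromosome 14 held 26 (2.36%, against 3.89%). The X-linked members include Ddx3x, Usp9x, Taf1 and Rbbp7.

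Inside members lay 11 annotated miRNA hairpins. Mir3091 lay in the region of Rps21, Mir686 in that of Psmb5, Mir688 in that of Atp5g2, Mir707 in that of Tbc1d17, and both Mir5132 and Mir718 in that of Irak1, a kinase of interleukin and Toll-like receptor signalling. These are positions only, and no miRNA level was measured in these libraries.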
